A study of Mus musculus with 11 samples.

Results

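The comparison described here is the change in liver gene expression between the day of birth and postnatal day 2 in mice whose Notch pathway is constitutively active in the liver. Its members are the arrays titled as mutant, 3 from day 0 and 3 from day 2, which make up 6 of the 11 arrays in the series. Mutant pups were double transgenic AFP-Cre/Rosa26-lsl-NICD animals: Cre driven by the alpha-fetoprotein promoter removes a stop cassette in front of the Notch intracellular domain, NICD, at the Rosa26 locus, so that the receptor's signalling fragment is made without a ligand. Control pups were mono transgenic and carried Rosa26-lsl-NICD without Cre, with 2 arrays at day 0 and 3 at day 2. All animals were of a hybrid 129 x C57BL/6 background, and total RNA was taken from whole liver. No group carried Cre alone, and NICD is made only in cells that have used the alpha-fetoprotein promoter and in their descendants.

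At birth the liver of a mouse loses the glucose supplied by the placenta and within hours depends on milk, which is rich in fat. Hepatocytes then oxidise fatty acids, make ketone bodies and glucose, and begin to express the detoxifying and bile acid handling enzymes of the adult organ, while the blood forming cells of the fetal liver leave for the marrow. Notch signalling in the developing liver favours the bile duct fate over the hepatocyte fate in the common precursor of both cell types. The labelled tissue was borne out by its defining markers: albumin was at the upper limit of the scanner on all 6 mutant arrays, transferrin (Trf) lay between 8.22 and 9.26, and the fetal protein Afp between 8.54 and 9.46. These and all levels below are log2 signals after subtraction of the array's own 75th percentile, which is therefore at 0, and they are compared within a gene and not between genes.

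Between 64.7% and 68.6% of the spots on a mutant array were well above background, and the 75th percentile signal ran from 607.72 units on day 0 replicate 3 to 1301.55 units on day 2 replicate 1. Day 0 replicate 3 stood apart from the rest. Its correlation over the tested genes with the other day 0 mutants was 0.954 and 0.952, against 0.991 between those 2 arrays and 0.988 to 0.991 among the day 2 mutants, and its estimated array weight was 0.111 where every other array of the series had 0.648 to 1.82. Against the mean of the other day 0 mutants its median was higher by 2.40 over the 22 measured immediate early genes, by 1.60 over 27 granulocyte genes, by 1.71 over 21 megakaryocyte genes and by 1.29 over 38 stress genes, in log2 units. The same difference was -0.85 over 32 bile acid genes, -0.66 over 43 erythroid genes and -1.21 over 28 lymphoid genes. Counts over the main gene lists below are therefore also given without it. By Xist and Y-linked probes the 3 day 0 mutants were female, as were day 2 replicates 2 and 3, and day 2 replicate 1 was male. Day 0 mutants always occupied position 2 of their slide and day 2 mutants position 4, so day and position cannot be told apart, and nothing in the labels says whether pups of a group shared a litter.

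Of 15776 genes tested, 1493 rose from day 0 to day 2 in mutant liver (9.46%) and 1780 fell (11.3%) at an adjusted p under 0.05 by limma with Benjamini-Hochberg adjustment. Gene list counts below are to be read beside these shares, and control counts beside 5.54% of all genes higher and 5.73% lower. At least a 2-fold difference was reached by 722 of the genes that rose and 1118 of those that fell (640 and 1007 without day 0 replicate 3). For 1488 and 1769 of the called genes every day 2 array lay beyond every day 0 array. Over all genes tested, called or not, the day 2 arrays lay above those of day 0 for 3300 (20.9%) and below for 3501 (22.2%). Without day 0 replicate 3, 1612 genes were called higher (10.2%) and 1908 lower (12.1%), with 1214 and 1384 genes called both ways. The share of calls that were higher depended on scaling: centring each array on its median gave 2092 higher and 1206 lower, quantile normalisation 1684 and 1460, and the authors' RMA values 1654 and 1428. Under median centring the median of all genes was 0.179 rather than -0.002. The counts were smallest without day 2 replicate 3, at 627 higher and 761 lower, and were also far below the main counts without day 2 replicate 1 (839 and 1028) or replicate 2 (684 and 887).

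Prg4, the lubricant proteoglycan lubricin, was not well above background on any day 0 mutant array and lay at -1.61, -2.07 and -1.51 on day 2, a rise of at least 20.8-fold (limma adjusted p = 9.12e-05). For such a gene the bound sets the day 2 mean against the lowest signal that counted as well above background on each day 0 array. Cyp1a2, the caffeine metabolising cytochrome P450 of mature hepatocytes, was likewise undetected at day 0 and rose at least 29.2-fold to -0.96, -2.17 and -0.60. Dpysl4, a dihydropyrimidinase-like protein known from neurons, rose at least 31.4-fold to -0.35, -2.53 and -0.53. Igfbpl1, related to the insulin-like growth factor binding proteins, rose at least 23.9-fold to -2.30, -0.99 and -1.30, and Ifi27l2b at least 12.6-fold to -2.11, -2.70 and -2.56. These bounds hold only for the background treatment of the main fit. Over the settings tried the smallest log2 difference was 2.36 for Prg4, 2.39 for Cyp1a2 and 2.62 for Dpysl4. It was 2.21 for Igfbpl1 and 1.49 for Ifi27l2b, so all 5 fell short of the bounds. Day 2 arrays stood clear of day 0 arrays for every gene of this group, which the rule for choosing leading genes required. The fitted difference for Dpysl4 moved from 6.13 to 6.83 without day 2 replicate 2.

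Apoa4, the apolipoprotein secreted with dietary fat, stood at -3.87, -3.61 and -1.79 on day 0 and at 2.71, 2.24 and 3.13 on day 2. That is a log2 difference of 5.78 ± 0.86 (standard error of the fit, 3 arrays against 3; 55.1-fold; adjusted p = 0.00382), or 6.43 without day 0 replicate 3, its highest day 0 array. Cyp4a14, a fatty acid omega-hydroxylase and a classical target of the nuclear receptor PPARalpha, went from 2.69, 1.55 and 1.46 to 6.87, 7.34 and 7.40, a difference of 5.30 ± 0.36 (39.5-fold; adjusted p = 0.000155). Its probe lies at chr4:114984241-114984300 in mm8. Sult2a2, a sulfotransferase that acts on hydroxysteroids and bile acids, rose by 5.86 ± 0.77 (adjusted p = 0.00233), or by 5.08 without day 0 replicate 3, which was its lowest array. Cyp3a25 rose by 5.52 ± 0.73 (adjusted p = 0.0024), with 4.48 when that same array was left out and 6.26 without day 0 replicate 1. C2cd4b, a nuclear protein known as a cytokine-responsive gene, rose from -4.86, -5.97 and -4.36 to 0.29, -0.01 and 0.58 (5.35 ± 0.35, 40.7-fold; adjusted p = 0.000122). By the same rule of choice, the lowest day 2 array of each of these genes exceeded its highest day 0 array.

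Among the largest falls were an embryonic globin, regulators of glycogen and genes known to respond to low oxygen or stress. Hba-x, the zeta chain of embryonic haemoglobin, stood at -2.11, -1.26 and 0.69 on day 0 and at -7.01, -7.74 and -5.99 on day 2, where 1 of the 3 arrays was well above background. The fitted difference was -6.02 ± 0.91 (adjusted p = 0.00415), -5.23 without day 0 replicate 3 and -6.63 without day 0 replicate 1. Ppp1r3b and Ppp1r3c, which bring protein phosphatase 1 to glycogen and so favour its synthesis, fell together. Ppp1r3b went from -0.27, 0.01 and 0.97 to -4.13, -4.21 and -3.17, a difference of -4.07 ± 0.41 (16.8-fold; adjusted p = 0.000754). Ppp1r3c went from -1.29, -1.22 and -0.93 to -5.21, -6.89 and -4.45, with 2 of 3 day 2 arrays above background, a difference of -4.37 ± 0.56 (adjusted p = 0.0021), or -3.68 without day 2 replicate 2. Neither gene's day 0 and day 2 ranges overlapped, which the choice of leading falls also required.

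For several other leading falls day 0 replicate 3 carried a good part of the size. Nupr1, a stress-induced chromatin protein, was at 1.63 and 1.90 on day 0 replicates 1 and 2, at 5.71 on replicate 3 and between -1.43 and -1.25 on day 2. Its difference was -4.40 ± 0.91 (adjusted p = 0.0125) with all arrays and -3.08 (adjusted p = 0.00188) without replicate 3; without replicate 1 or 2 it was -5.12 or -4.99. Mgarp, a mitochondrial protein also named for its induction by low oxygen, was at -0.56, -0.46 and 4.32 on day 0, and its difference was -5.49 with all arrays and -3.88 without replicate 3. Leaving out day 2 replicate 1 (-4.96) or replicate 3 (-5.57) ended that call, and leaving out day 0 replicate 1 or 2 gave -6.32 or -6.27. Ptges, a prostaglandin E synthase, differed by -4.09 with all arrays and by -2.90 without replicate 3, and by -4.80 without day 0 replicate 2; the call ended without day 2 replicate 2 (-4.08) or 3 (-3.92). Efna3, a membrane-bound ephrin, fell at least 8.69-fold to below background on all day 2 arrays, with a fitted difference of -4.95, or -3.99 without day 0 replicate 3. Its smallest fitted difference over the settings tried was -1.80, short of that bound. Mroh4 differed by -4.08, by -3.08 without replicate 3 and by -4.76 without replicate 1. Dnah2 (-4.31 ± 0.36) and Vav2 (-4.07 ± 0.73) are reported as uncertain, because a second tested probe of each differed by 0.34 and 0.55, in the opposite direction.

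**Figure D1:**
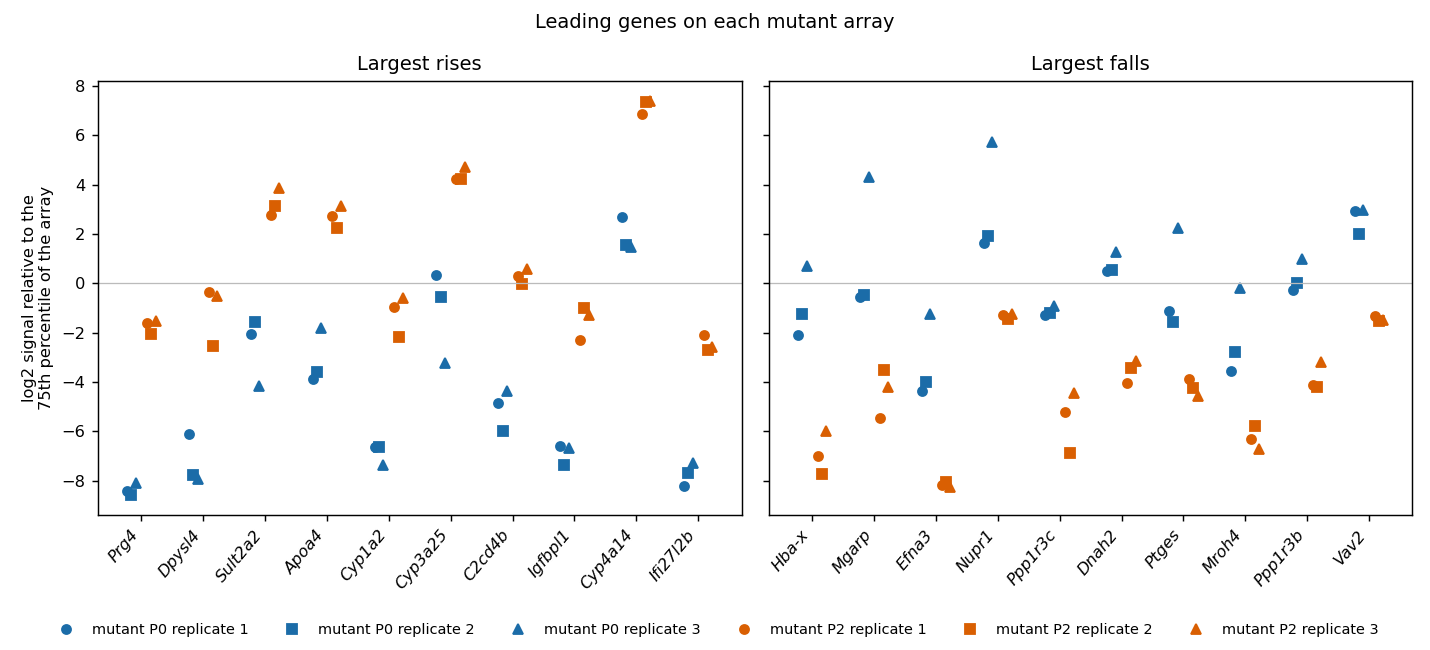
Log2 signal, with each array's 75th percentile at 0 (vertical axis), for the 10 genes with the largest rises and the 10 with the largest falls, one point per mutant array; colour marks the day and shape the replicate. The choice of genes required the day 2 points to stand clear of the day 0 points. Day 0 replicate 3 (blue triangles) lies far above the other day 0 arrays for Mgarp, Nupr1 and Ptges.

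With all arrays, the gene list with the median farthest from 0 held the interferon-stimulated genes, which cells switch on when type I interferon binds its receptor. Of 30 measured members 19 fell and none rose, with a median log2 difference of -1.56, against 11.3% of all genes called lower and a median of 0 over all genes tested. The promoters of many such genes hold a sequence known as the interferon-stimulated response element. Promoter windows of 250 bases before the annotated start were taken from RefSeq (GRCm38.p6) for 23 of the 30 members, and 11 of them held GAAA followed by any 2 bases and GAAA again, on either strand (47.8%), as did 403 of 12141 tested genes with a window (3.32%). Among the 13 members with a window that fell, 8 held the letters, as did 83 of all 1330 genes with a window that fell (6.24%). The stretches below show 5 of these windows from genes that fell, each from 5′ to 3′ on the gene's strand, with capitals marking the matched letters, which in Isg15, Oas1a and Bst2 overlap one another. They are Rsad2 at chr12:26456513-26456612 (minus strand), Oas1a at chr5:120907526-120907585 (minus strand), Isg15 at chr4:156200837-156200936 (minus strand), Ifit3 at chr19:34583333-34583432 (plus strand) and Bst2 at chr8:71537543-71537642 (minus strand). A match describes the letters of the window and is not evidence of a bound site.
Rsad2: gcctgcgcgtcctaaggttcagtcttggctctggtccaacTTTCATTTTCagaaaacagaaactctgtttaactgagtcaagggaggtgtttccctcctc
Oas1a: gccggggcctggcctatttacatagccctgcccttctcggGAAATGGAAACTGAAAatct
Isg15: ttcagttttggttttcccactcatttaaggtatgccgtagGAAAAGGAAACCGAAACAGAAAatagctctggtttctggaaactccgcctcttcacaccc
Ifit3: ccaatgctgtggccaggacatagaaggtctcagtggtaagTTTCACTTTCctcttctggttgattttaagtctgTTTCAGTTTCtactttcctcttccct
Bst2: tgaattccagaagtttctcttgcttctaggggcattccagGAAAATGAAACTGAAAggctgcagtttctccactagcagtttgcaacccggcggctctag

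Rsad2, which makes the antiviral protein viperin, was at 2.51, 3.63 and 2.63 on day 0 and at 0.04, 0.27 and -0.41 on day 2, a difference of -2.96 ± 0.45 (7.77-fold; adjusted p = 0.00415). Oas1a, an enzyme of the RNA-degrading antiviral pathway, went from -0.09, 0.76 and 1.51 to -2.11, -1.71 and -2.64 (-2.88 ± 0.38; adjusted p = 0.0024). Isg15, a ubiquitin-like modifier, went from 2.08, 3.28 and 3.64 to 0.01, 0.50 and -0.29 (-2.93 ± 0.53; adjusted p = 0.0076). In all 3 genes the highest day 2 array was below the lowest day 0 array. Oas2, a relative of Oas1a, fell from -3.21, -2.65 and -0.83 to -5.32, -5.97 and -6.86, with 2 of 3 day 2 arrays above background (-3.82 ± 0.58; adjusted p = 0.00428; -3.11 without day 0 replicate 3). The transcription factor Irf7, which sustains the response, differed by -2.32 ± 0.42 (adjusted p = 0.00777). Bst2, which tethers budding virus to the cell, differed by -1.78 ± 0.28 (adjusted p = 0.00444) and Ifit3, an RNA-binding antiviral protein, by -2.02 ± 0.34 (adjusted p = 0.00595).

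The interferon list stood highest on day 0 replicate 3, where its median level was 1.20 relative to the mean of the 6 mutant arrays; the other day 0 mutants were at 0.22 and 0.69 and no day 2 mutant was above -0.53. Without day 0 replicate 3, 15 members fell, 14 of them among the 19, and the median was -1.13; Ifit1 was among those lost (adjusted p = 0.0744). The count was 12 without day 2 replicate 2 and 11 without day 2 replicate 3. In controls 2 of the 30 fell, where 5.73% of all genes were called lower, and the median difference was -0.41. For no member did the difference between genotypes pass its own test.

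**Figure D2:**
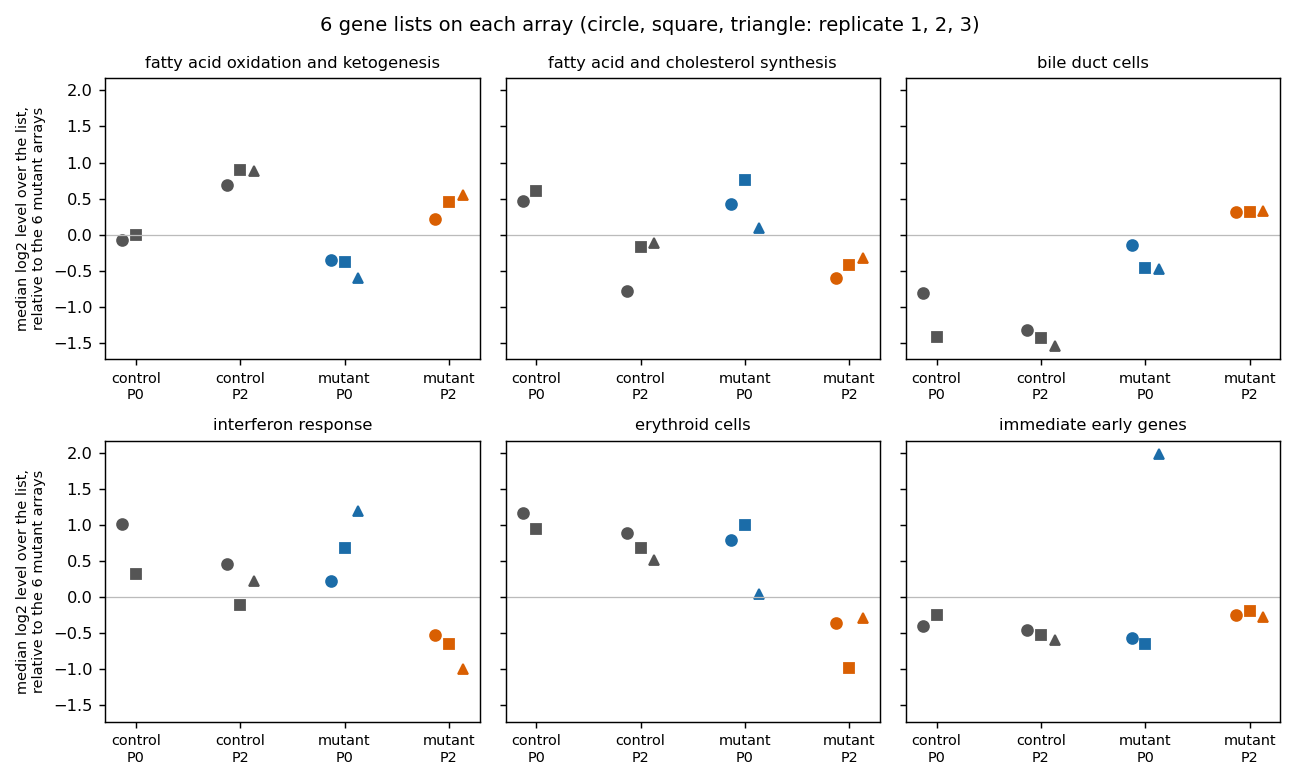
Median log2 level over the members of 6 gene lists on each of the 11 arrays, relative to each gene's mean over the 6 mutant arrays (vertical axis); circle, square and triangle are replicates 1, 2 and 3. Day 2 mutants lie above day 0 mutants for fatty acid oxidation and bile duct genes and below them for lipid synthesis, interferon and erythroid genes, and day 0 replicate 3 is at 1.99 for immediate early genes where every other array is below 0.

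Most measured genes of fatty acid oxidation and ketone body formation were called higher. Of 36 members 22 rose, beside 9.46% of all genes, 1 fell and 13 did not pass, with a median of 0.84, and without day 0 replicate 3 the counts were 24 and 1. Cpt1a, which admits long-chain fatty acids to the mitochondrion and sets the rate of oxidation, went from 2.50, 2.17 and 0.68 to 4.21, 4.39 and 4.63 (2.63 ± 0.46, 6.17-fold; adjusted p = 0.00661). Ehhadh, the bifunctional enzyme of peroxisomal oxidation, went from 1.82, 1.73 and 1.41 to 4.44, 5.43 and 4.79 (3.23 ± 0.24, 9.41-fold; adjusted p = 0.000206). Acaa1b, the peroxisomal thiolase, rose by 2.14 ± 0.19 (adjusted p = 0.000386). Every day 2 value of these genes exceeded every day 0 value. The member that fell was Ppara, the receptor that drives many of these genes, at 2.20, 2.19 and 2.84 on day 0 and 1.17, 0.86 and 1.47 on day 2 (-1.24 ± 0.22; adjusted p = 0.00687). Acot1 (2.01), Acot2 (2.28), Acot3 (2.27) and Acot4 (1.93), the acyl-CoA thioesterases, all rose, as did Cyp4a10 (4.14); members of these families are near copies of one another, and their probes may share signal. In controls 19 members rose, against 5.54% of all genes, with a median of 0.93.

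Fatty acid and cholesterol synthesis moved the other way, with 15 of 38 members lower and 1 higher, beside 11.3% and 9.46% of all genes. The list median was -0.86. Fdps, the farnesyl diphosphate synthase of the cholesterol pathway, went from 6.29, 6.70 and 5.57 to 2.72, 2.84 and 2.93 (-3.36 ± 0.40, 10.2-fold; adjusted p = 0.0017), with no overlap between days. The stearoyl-CoA desaturases Scd2 (-1.91 ± 0.29; adjusted p = 0.00415) and Scd1 (-3.09 ± 0.51; adjusted p = 0.00528) both fell, Scd1 by 3.81 without day 0 replicate 3. Insig1, which holds the sterol sensor in the endoplasmic reticulum, differed by -2.50 ± 0.43 (adjusted p = 0.00608). The member that rose was Mlxipl, the carbohydrate-responsive factor ChREBP (0.90). The counts were 16 lower and 1 higher without day 0 replicate 3, and without day 2 replicate 1 or 3 the lower count was 9. In controls 13 fell, beside 5.73% of all genes, with a median of -0.83.

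Glycogen and glucose genes did not move as one. Of 27 members 3 rose and 6 fell (4 and 7 without day 0 replicate 3), beside 9.46% and 11.3% of all genes. The median of -0.09 had no settled sign, since relative to all genes it ran from -0.09 to 0.08 over the scalings tried. The 3 that rose were Tat, a glucocorticoid-induced tyrosine aminotransferase (2.72 ± 0.28; adjusted p = 0.000793), the alanine aminotransferase Gpt (1.89) and G6pc, the glucose-6-phosphatase that releases glucose to the blood. G6pc went from 4.53, 4.17 and 2.29 to 6.00, 5.90 and 6.13 (2.34 ± 0.53; adjusted p = 0.0166), by 1.65 without day 0 replicate 3 and, without day 2 replicate 3, by 2.28 with the call lost. Besides Ppp1r3b and Ppp1r3c, the branching enzyme Gbe1 (-1.88), the liver phosphorylase Pygl (-0.91), pyruvate carboxylase Pcx (-0.80) and fructose bisphosphatase Fbp1 (-0.56) fell.

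Amino acid breakdown and the urea cycle had 10 of 40 members higher and 1 lower, beside 9.46% and 11.3% of all genes. The list median was 0.53. Amdhd1 of histidine breakdown rose by 1.72 ± 0.25 (adjusted p = 0.00318), Kmo of tryptophan breakdown by 1.82 ± 0.29 (adjusted p = 0.00485) and Agxt, which removes glyoxylate, by 2.07 ± 0.42 (adjusted p = 0.0114). Cps1, the entry enzyme of the urea cycle, was at 4.46, 4.20 and 5.15 on day 0 and 4.67, 4.59 and 5.45 on day 2, which overlapped. The counts were again 10 and 1 without day 0 replicate 3, of which 9 and 1 were the same genes. In controls 5 members rose and none fell, beside 5.54% and 5.73% of all genes.

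Detoxification genes had 19 of 58 members higher and 1 lower (median 0.87), beside 9.46% and 11.3% of all genes. Without day 0 replicate 3 the counts were 19 and 6 (median 0.64), and without day 2 replicate 3 the higher count was 13. Ephx1, the microsomal epoxide hydrolase, went from 0.87, 0.88 and 0.31 to 2.93, 3.17 and 3.23 (2.43 ± 0.21, 5.37-fold; adjusted p = 0.000377). Cyp3a11, a main steroid and drug oxidase of mouse liver, rose by 2.90 ± 0.30 (7.47-fold; adjusted p = 0.000821), and Cyp2c37 by 3.26 ± 0.52 (adjusted p = 0.00469). Cyp2c55 was not above background on day 0 and rose at least 4.29-fold (adjusted p = 0.000791); with normexp background correction, which shrinks dim signals, its difference was 0.39 and did not pass. Gstt1, a glutathione transferase, was the member that fell (-0.91). The Cyp3a and Ces1 genes of this list are close paralogs and their probes may share signal. In controls 17 members rose and none fell, beside 5.54% and 5.73% of all genes, with a median of 0.61.

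Bile acid synthesis and transport had 12 of 32 members higher and none lower, beside 9.46% and 11.3% of all genes. The list median was 0.86. Amacr, the racemase of side chain shortening, went from 3.46, 3.49 and 2.33 to 5.02, 4.98 and 5.20 (1.97 ± 0.30; adjusted p = 0.00407). Baat, which joins bile acids to taurine, went from 0.02, 0.04 and -0.76 to 0.99, 1.47 and 1.78 (1.65 ± 0.25; adjusted p = 0.00431). Both rose on all day 2 arrays. Nr0b2, the small heterodimer partner that represses bile acid synthesis, was above background on 2 of 3 day 0 arrays and rose by 3.53 ± 0.68 (adjusted p = 0.00941). The basolateral exporter subunits Slc51a (2.03) and Slc51b (2.53) and the sterol pump subunit Abcg5 (3.29) rose as well. Cyp7a1, whose enzyme sets the rate at which bile acids are made, showed no called change. It was at 0.12 and -0.73 on day 0 replicates 1 and 2, at -4.58 on replicate 3, and at -2.46, -2.55 and -1.43 on day 2. Its fitted difference of -0.41 ± 1.08 (adjusted p = 0.80) became -1.84 without replicate 3 and 0.51 without replicate 1, and a second probe differed by 0.34. Of the list 11 members rose without day 0 replicate 3, and without day 2 replicate 3, 5 did. In controls 5 rose and 1 fell, beside 5.54% and 5.73% of all genes.

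Secreted plasma proteins had 9 of 50 members lower and 4 higher, beside 11.3% and 9.46% of all genes. The median of -0.28 changed sign under other scalings, from -0.27 to 0.08 relative to all genes. The counts turned as well, to 3 lower and 7 higher under quantile normalisation, 2 and 6 in the RMA values and 4 and 6 under median centring. The fibrinogen chains led the falls. Fga went from 6.45, 6.59 and 6.16 to 4.54, 4.29 and 4.60 (-1.92 ± 0.21, 3.79-fold; adjusted p = 0.001), and Fgg from 8.85, 9.01 and 9.02 to 7.77, 7.77 and 7.93 (-1.13 ± 0.14; adjusted p = 0.00198). Fgb was saturated on all 3 day 0 arrays and on no day 2 array. Its difference of -1.24 is therefore a lower limit of the fall, but only within the main processing. Over the settings tried its difference ran from -1.33 to -0.63. The members that rose were the apolipoproteins Apoa4, Apoa5 (2.27 ± 0.32; adjusted p = 0.0032), Apob (1.19 ± 0.29; adjusted p = 0.0218) and Apoc2 (0.91). The Apob call was lost without day 0 replicate 2 (1.11), day 2 replicate 1 (1.17) or day 2 replicate 3 (1.06). Trf differed by -0.80 ± 0.15 (adjusted p = 0.00821) but only by -0.22 under quantile normalisation and -0.26 in the RMA values, where it did not pass. Members called lower numbered 10 without day 0 replicate 3, 5 without control day 2 replicate 2 or day 0 replicate 2, and 4 without any one of the day 2 mutants; the higher count was 2 without day 2 replicate 3.

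Complement and acute phase proteins, which the liver makes in response to inflammation, had 9 of 35 members lower and 1 higher. The shares over all genes were 11.3% and 9.46%. The list median was -0.43, and 8 fell and 1 rose without day 0 replicate 3. Saa3, a serum amyloid A, went from 1.02, 0.90 and 1.46 to -2.39, -2.04 and -2.21 (-3.34 ± 0.33, 10.1-fold; adjusted p = 0.000706), and C8b, of the membrane attack complex, from 3.17, 3.11 and 2.17 to 0.68, 0.08 and 1.12 (-2.19 ± 0.33; adjusted p = 0.00382). Saa1 differed by -1.49 ± 0.20 (adjusted p = 0.0024), but a second Saa1 probe differed by 0.96. The member that rose was the haem carrier Hpx (0.88). Only 3 fell without day 2 replicate 2 or 3, 4 without day 2 replicate 1 or either day 0 control, and 5 without control day 2 replicate 2, day 0 replicate 1 or day 0 replicate 2. In controls 1 member rose and 1 fell, beside 5.54% and 5.73% of all genes.

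Among the factors that set hepatocyte identity, 3 of 32 rose and 2 fell, no more than the 9.46% and 11.3% of all genes. The counts were 5 and 2 without day 0 replicate 3 and 7 and 1 under median centring. The lower count was 1 without either day 0 control, control day 2 replicate 1, day 0 replicate 2 or day 2 replicate 1 or 3. Gata6 rose by 0.94 ± 0.16 on its brightest probe (adjusted p = 0.00674), with probes of the gene ranging from -0.76 to 0.94. Hnf4a, the master regulator of hepatocytes, was at 1.35, 1.84 and 2.27 on day 0 and 1.57, 1.83 and 2.03 on day 2 (-0.01 ± 0.26), and Cebpa at 2.94, 2.84 and 2.60 on day 0 and 2.37, 1.98 and 2.55 on day 2 (-0.49 ± 0.18; adjusted p = 0.0801).

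Bile duct genes moved upward. Of 45 measured members 18 rose and 3 fell, beside 9.46% and 11.3% of all genes, with a median of 0.72. Without day 0 replicate 3 the counts were 16 and 5, of which 13 and 3 were the same genes. The higher count was 12 without any one of the day 2 mutants and 21 without day 0 replicate 1. Wfdc2, a secreted protease inhibitor of ductal epithelia, went from 1.55, 0.82 and 1.31 to 3.12, 3.33 and 3.13 (1.96 ± 0.23, 3.90-fold; adjusted p = 0.00135). Cldn3, a tight junction protein, rose by 1.89 ± 0.30 (adjusted p = 0.00444) and Cldn7 by 1.33 ± 0.28 (adjusted p = 0.013). In each of these genes the day 2 arrays lay above all day 0 arrays. Krt7, a duct keratin, went from 1.15, 1.36 and 0.73 to 2.00, 1.87 and 1.66 (0.76 ± 0.22; adjusted p = 0.0396), a call that ended without day 0 replicate 3 (0.59, adjusted p = 0.0789), without day 0 replicate 1 (0.80), without day 2 replicate 1 (0.69), 2 (0.75) or 3 (0.85), and without either day 0 control or control day 2 replicate 1 (0.76). The members that fell were Muc20 (-1.73), Ggt1 (-0.95) and Cd24a (-0.89), and none was called without day 2 replicate 2.

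Some of the best known duct markers did not pass. Sox9, the factor that marks duct cells and their precursors, was at 3.18, 2.32 and 2.22 on day 0 and 2.39, 2.31 and 2.60 on day 2 (-0.14 ± 0.25; adjusted p = 0.694), and its 3 probes ran from -0.20 to 0.34. Spp1, osteopontin, was at 8.32, 7.30 and 6.29 on day 0 and 7.90, 7.61 and 7.62 on day 2. Krt19 stood at -0.81, -0.73 and 1.36 on day 0 and 0.90, 0.41 and 0.95 on day 2; its difference was 0.81 ± 0.53 (adjusted p = 0.278) and passed without day 0 replicate 3, at 1.52 (adjusted p = 0.00911), and with array weights, at 1.49. Epcam was at 0.94, -0.02 and -0.15 on day 0 and 1.29, 1.20 and 1.13 on day 2 (0.95 ± 0.34; adjusted p = 0.0751), and passed without day 0 replicate 1 at 1.29. In whole liver, more duct cells and more RNA per duct cell cannot be told apart, and the same holds for every cell type below.

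In controls 1 duct gene rose and 6 fell, beside 5.54% and 5.73% of all genes, with a median of -0.28. The median level of the list, relative to the 6 mutant arrays, was -0.15, -0.47 and -0.48 on the day 0 mutants, 0.31, 0.31 and 0.33 on the day 2 mutants, -0.81 and -1.42 on the day 0 controls and -1.32 to -1.55 on the day 2 controls. The difference of the day effect between genotypes passed its test for 3 members, among them Krt7 (2.09, adjusted p = 0.0459) and Ddr1 (2.19, adjusted p = 0.0216). These calls come from the main fit, where 37 of all genes tested were higher by this contrast. Adding pup sex to the fit reduced that number to 4, and the counts do not say whether any duct gene remained.

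Among genes listed as Notch targets in 1 or another tissue, 3 of 31 rose and 4 fell (median 0), close to the 9.46% and 11.3% of all genes. Without day 0 replicate 3, 6 rose and 2 fell. Whether NICD acts on them directly in this liver was not tested. Nrarp, a feedback inhibitor that Notch induces, went from 0.85, 0.61 and -0.03 to 1.91, 2.68 and 2.03 (1.73 ± 0.27, 3.31-fold; adjusted p = 0.00431). Heyl, a repressor of the Hes and Hey family, went from 0.81, 0.80 and -1.44 to 2.24, 2.10 and 2.27 (2.14 ± 0.53; adjusted p = 0.0231). The Heyl difference was 1.40 without day 0 replicate 3, and it did not pass without day 2 replicate 1 (2.13), 2 (2.20) or 3 (2.11). Id4, an inhibitor of differentiation factors, rose by 1.24 ± 0.22 (adjusted p = 0.00746). Hes1 was at -0.20, -0.88 and 0.90 on day 0 and -0.53, -0.31 and -0.42 on day 2 and did not pass (-0.35 ± 0.36, or 0.12 without day 0 replicate 3). Hey1 was at 1.59, 1.21 and 2.81 on day 0 and 2.33, 2.54 and 2.46 on day 2; its difference of 0.57 did not pass (adjusted p = 0.249) but was 1.04 (adjusted p = 0.00561) without day 0 replicate 3. The 4 that fell were Myc (-1.57), Gadd45a (-1.70), Ptcra and Il2ra, the last 2 by at least 1.67-fold and 2.31-fold to below background on all day 2 arrays. Ptcra and Il2ra did not pass without day 0 replicate 3 (adjusted p = 0.0957 and 0.052). The lower count was 0 without day 2 replicate 3, 1 without day 2 replicate 1 or 2, and 2 without day 0 replicate 2 or control day 2 replicate 2.

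Receptors, ligands and other parts of the pathway had 1 of 33 members higher and 4 lower (4 and 5 without day 0 replicate 3), beside 9.46% and 11.3% of all genes. Dlk1, an imprinted non-canonical ligand abundant in fetal hepatoblasts, went from 6.96, 7.20 and 7.37 to 4.26, 5.21 and 4.86 (-2.40 ± 0.23, 5.28-fold; adjusted p = 0.000622). Spen, a corepressor of Notch targets, differed by -1.79 ± 0.34 (adjusted p = 0.00907), and Dtx4, a ubiquitin ligase of the Deltex family, by 1.19 ± 0.30 (adjusted p = 0.0239; lost without day 2 replicate 1, 2 or 3, at 1.22, 1.15 and 1.20). Notch1 was at -2.43, -2.90 and -0.75 on day 0 and -1.95, -1.80 and -1.88 on day 2; it passed without day 0 replicate 3, at 0.79 (adjusted p = 0.0139), and with array weights, at 0.71. Whether this probe also reads the transgene's NICD was not tested. The lower count was 2 without either day 0 control, control day 2 replicate 1, day 0 replicate 2 or any one of the day 2 mutants, and the higher count was 3 without day 0 replicate 1 and 0 without any one of the day 2 mutants.

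Genes of the fetal liver and imprinted growth genes fell, with 12 of 36 members lower and 3 higher (median -0.64). The shares over all genes were 11.3% and 9.46%. Without day 0 replicate 3, 14 were lower and 1 higher. Cdkn1c, the imprinted brake on cell division p57, went from 6.98, 7.01 and 6.28 to 3.67, 4.17 and 4.29 (-2.71 ± 0.26, 6.56-fold; adjusted p = 0.00065). Aldoc, a fetal aldolase isoform, went from 2.16, 2.24 and 2.46 to -0.05, -0.31 and 0.23 (-2.33 ± 0.17, 5.04-fold; adjusted p = 0.000191). The imprinted RNA H19 went from 8.03, 8.32 and 8.06 to 7.45, 7.37 and 7.49 (-0.70 ± 0.14; adjusted p = 0.0109) but did not pass under quantile normalisation (-0.25) or in the RMA values (-0.26). Afp differed by -0.60 ± 0.16 (adjusted p = 0.0273), by -0.05 under quantile normalisation and by -0.09 in the RMA values; leaving out day 2 replicate 1 (-0.57), 2 (-0.63) or 3 (-0.60) also ended that call. Igf2 was at 8.23, 8.40 and 8.27 on day 0 and 8.04, 7.99 and 8.13 on day 2 (-0.25 ± 0.13; adjusted p = 0.189), with 0.24 under quantile normalisation. Against this trend Igfbp2, a carrier of the insulin-like growth factors, went from 4.59, 4.34 and 5.05 to 7.12, 6.94 and 7.01 (2.36 ± 0.31, 5.15-fold; adjusted p = 0.00217). The lower count was 7 without day 2 replicate 1 or 3 and 6 without day 2 replicate 2, and the higher count was 1 without either day 0 control, day 0 replicate 2 or any one of the day 2 mutants. In controls 7 fell and 1 rose, beside 5.73% and 5.54% of all genes.

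Among cell cycle genes none of 54 rose and 5 fell, beside 11.3% of all genes called lower, with a median of 0.11 over all members. Median centring gave 3 higher and 2 lower, and normexp background correction 3 and 5. In controls 9 members rose and none fell, beside 5.54% and 5.73% of all genes, with a median of 0.37. Nusap1, of the mitotic spindle, differed by -0.88 ± 0.16 (adjusted p = 0.00839) and Ube2c, which ends mitosis, by -0.85 ± 0.17 (adjusted p = 0.0117). Mki67 went from 5.62, 5.51 and 5.27 to 5.12, 4.85 and 4.98 (-0.48 ± 0.14; adjusted p = 0.0371), a call lost without day 0 replicate 1 (-0.41) or 2 (-0.46), without day 2 replicate 1 (-0.55), 2 (-0.42) or 3 (-0.48), without either day 0 control or without control day 2 replicate 2. Without day 0 replicate 2, 2 members rose. Falls numbered 6 without day 0 replicate 3, 3 without either day 0 control, and 2 without control day 2 replicate 2 or any one of the other mutant arrays.

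Erythroid genes fell more than any other list of cell type markers. Of 43 measured members 25 fell and 1 rose, beside 11.3% and 9.46% of all genes, with a median of -1.13. Without day 0 replicate 3, 38 fell and 1 rose, with all 25 among the 38 and a median of -1.41. Without day 2 replicate 2 the lower count was 16. Besides Hba-x, the embryonic globins Hbb-bh1 and Hbb-y fell. Hbb-bh1, at chr7:103715614-103715673 in mm8, went from -1.47, -0.92 and -0.79 to -4.15, -5.06 and -4.75 (-3.60 ± 0.26, 12.1-fold; adjusted p = 0.000206). Hbb-y went from 0.76, 1.05 and 1.54 to -1.32, -2.20 and -1.85 (-2.91 ± 0.37; adjusted p = 0.00216). The adult globins Hba-a1 and Hbb-bt were saturated on all 3 day 0 arrays. Their differences of -1.09 and -0.87 are therefore lower limits of the fall, but only within the main processing. The alpha and beta globins are also near copies whose probes may share signal. Alas2, the first enzyme of haem synthesis in red cells, differed by -2.05 ± 0.30 (adjusted p = 0.00378), the water channel Aqp8 by -3.47 ± 0.33 (adjusted p = 0.000622) and the transcription factor Nfe2 by -1.76 ± 0.18 (adjusted p = 0.000821). Day 2 was below day 0 on every array for these genes. Gata1, which directs red cell development, was at 1.48, 1.70 and 1.03 on day 0 and 1.25, 0.66 and 1.08 on day 2 (-0.41 ± 0.22; adjusted p = 0.204). The member that rose was the carbonic anhydrase Car1, from 0.81, 1.20 and 0.33 to 2.11, 2.22 and 2.26 (1.42 ± 0.22; adjusted p = 0.00431). The summed linear level of the list, relative to the 75th percentile, was 2580 to 3370 on day 0 and 1150 to 1590 on day 2. In controls 5 members fell and 1 rose (median -0.24), beside 5.73% and 5.54% of all genes. For no member did the difference between genotypes pass its test, and Hbb-bh1 was closest (-2.37, adjusted p = 0.0523).

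Other blood cells gave smaller counts. Macrophage genes had 14 of 38 lower and none higher (median -0.61), beside 11.3% and 9.46% of all genes. Without day 0 replicate 3 the counts were 18 and 2. The lower count was 6 without day 2 replicate 2 and 4 without day 2 replicate 3. Tlr4, the endotoxin receptor, differed by -1.70 ± 0.16 (adjusted p = 0.000645), its day 2 arrays at -4.34, -4.52 and -4.59 below all day 0 arrays, and C1qb, a complement subunit made by tissue macrophages, from 1.33, 1.54 and 0.85 to 0.38, 0.46 and 0.11 (-0.93 ± 0.19; adjusted p = 0.0107). Granulocyte genes had 8 of 27 lower and none higher (median -1.01), beside the same shares of all genes. Without day 0 replicate 3, 8 were lower and 1 higher (median -0.60). Gfi1, which directs granulocyte differentiation, differed by -1.39 ± 0.23 (adjusted p = 0.00506) and Prtn3, a granule protease, by -1.16 ± 0.26 (adjusted p = 0.0152; -1.03 and not passing without day 2 replicate 3). The granulocyte count was 4 without control day 2 replicate 2, 2 without day 2 replicate 1 or 2 and 1 without day 2 replicate 3. In controls 7 macrophage genes and 10 granulocyte genes fell, beside 5.73% of all genes. The lymphoid list had 1 of 28 higher and 1 lower, the megakaryocyte list 1 of 21 lower and the muscle list 1 of 21 higher. None of these counts was above the 9.46% higher or 11.3% lower of all genes. Without day 0 replicate 3 they became 0 and 5, 3 higher and 0 lower, and 2 and 2. Leaving out other single arrays gave 0 to 1 lymphoid genes higher and 0 to 2 lower, 0 to 3 megakaryocyte genes lower, and 0 to 1 muscle genes in each direction.

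Endothelial genes had 6 of 41 lower and 1 higher, beside 11.3% and 9.46% of all genes. Lyve1, a sinusoidal hyaluronan receptor, fell 1.99-fold (adjusted p = 0.0152; not passing without day 2 replicate 2), the endothelial factor Erg by -0.84 ± 0.17 (adjusted p = 0.011), and Ptprb rose by 0.90 ± 0.19 (adjusted p = 0.0133). Members called lower numbered 8 without day 0 replicate 3 and 2 without day 2 replicate 1 or 2. Stellate cell and matrix genes had 3 of 53 higher and 1 lower, below the 9.46% and 11.3% of all genes. Without day 0 replicate 3 the counts were 10 and 2. Tgfb2, a growth factor of fibrogenic cells, went from -1.47, -1.84 and -1.80 to -0.28, -0.33 and -0.37 (1.37 ± 0.16, 2.59-fold; adjusted p = 0.00135). Cygb, a marker of stellate cells, rose by 1.27 ± 0.28 (adjusted p = 0.0151) and Loxl1, which cross-links elastin, by 1.27 ± 0.26 (adjusted p = 0.011); these 3 were called with and without that array. The member that fell, Tagln, was not called without either day 0 control or any one of the day 2 mutants. In controls 7 stellate genes fell and none rose, beside 5.73% and 5.54% of all genes.

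Immediate early genes are the list on which day 0 replicate 3 weighed most. With all arrays 1 of 22 rose and 3 fell (median -0.39), beside 9.46% and 11.3% of all genes. Without day 0 replicate 3, 8 rose and 3 fell (median 0.57), beside 10.2% and 12.1%. Klf4 was the member that rose (0.78), and none rose when any other single array was left out; without day 2 replicate 3, 1 fell. Their median level was 1.99 on that array, -0.57 and -0.65 on the other day 0 mutants, and -0.24, -0.19 and -0.28 on the day 2 mutants. Maff, a small Maf factor, was at 2.75, 3.17 and 5.88 on day 0 and 0.85, 1.36 and 1.19 on day 2 (-2.80 ± 0.67; adjusted p = 0.0209), and differed by -1.83 without that array and by -3.40 without day 0 replicate 1. Its call was lost without day 2 replicate 1 (-2.66), 2 (-2.92) or 3 (-2.83). Myc went from 2.55, 2.35 and 3.91 to 1.33, 1.48 and 1.28 (-1.57 ± 0.35; adjusted p = 0.0152), by -1.08 without day 0 replicate 3 and by -1.53, not passing, without day 2 replicate 3. What set this array apart was not tested.

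**Figure D3:**
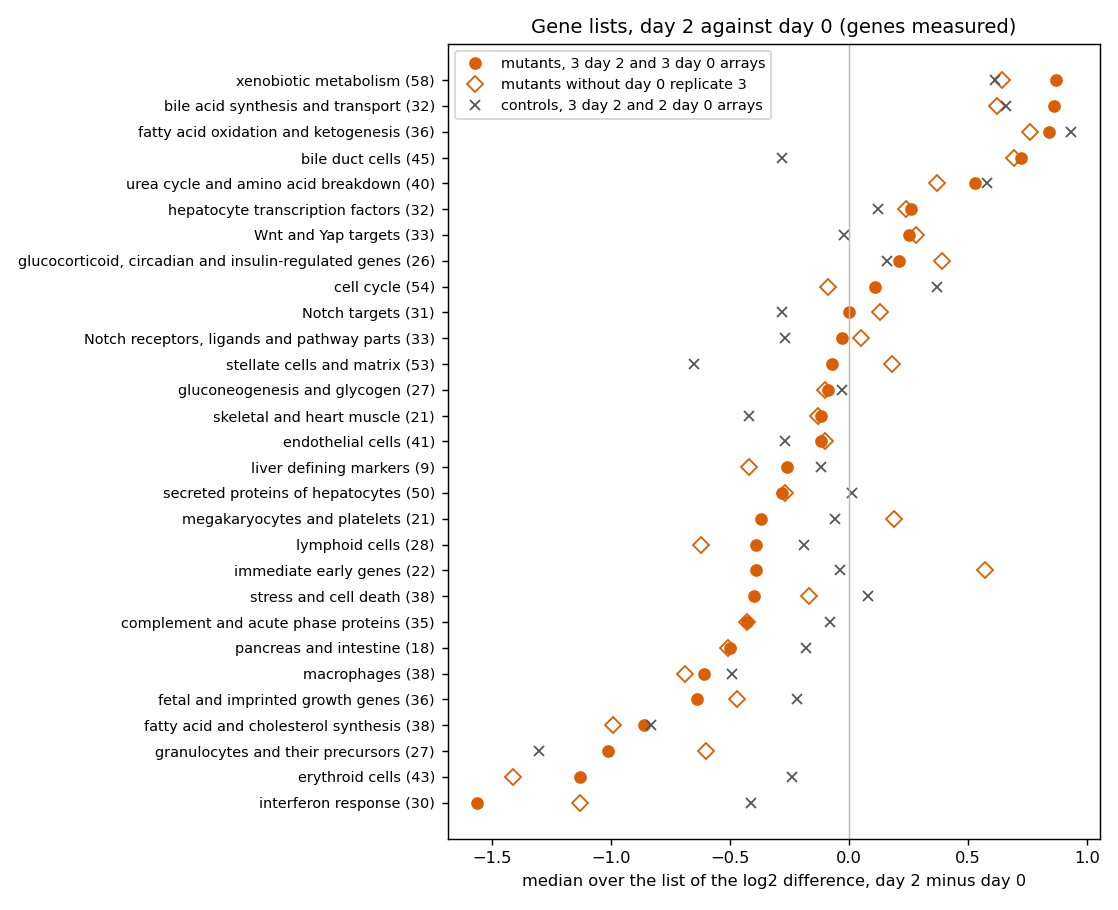
Median log2 difference, day 2 minus day 0, over the measured members of each gene list (horizontal axis; number of members in brackets). Filled circles are the mutants with all 6 arrays, open diamonds the mutants without day 0 replicate 3, crosses the controls; the bile duct list is at 0.72 in mutants and -0.28 in controls, and the immediate early list moves from -0.39 to 0.57 when day 0 replicate 3 is left out.

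Control values show how far these changes also accompany birth without NICD. Of the genes that rose in mutants 1201 of 1493 had a positive difference in controls and 459 also passed there, and of those that fell 1612 of 1780 had a negative one and 422 passed. Over all genes tested, 5.54% passed as higher and 5.73% as lower in controls, with a median of -0.02. With so few day 0 controls, a gene that did not pass there is not shown to be unchanged. In the opposite direction, 27 genes that rose in mutants fell in controls and no gene did the reverse. The day effect itself differed between genotypes for 43 of 15776 genes (0.273%) by the interaction contrast of the limma fit, 37 higher (0.235%) and 6 lower (0.038%) in mutants, with 2318 genes at an unadjusted p under 0.05. Both day 0 controls and 1 of 3 day 2 controls were male, where all day 0 mutants were female, and with pup sex as a covariate 4 were higher and 1 lower. Without day 0 replicate 3 there were 229 higher and 59 lower, and without control day 0 replicate 2, 1 and 1.

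Of the 37 genes, 32 were called higher in mutants and 23 were called lower in controls, with 18 called in both ways. Igfbpl1 was not above background on any control array, nor on the day 0 mutants, so the size of its difference between genotypes was not measured, although the contrast passed (adjusted p = 0.00788). C2cd4b stood between -5.72 and -6.00 on all 5 control arrays (5.25 ± 0.53; adjusted p = 0.00788). The lowest signals that counted as well above background on those arrays ran from -6.52 to -5.85. With normexp correction the C2cd4b difference was 3.56, so its size depends on the background treatment. Of the arrays left out one at a time, control day 0 replicate 2 ended the call of both genes, and no other did. Normexp background correction also ended the call of Igfbpl1. Rgma, a membrane coreceptor for bone morphogenetic proteins, went from 0.93, -0.19 and -0.57 to 2.42, 2.76 and 2.18 in mutants and from -1.32 and -1.45 to -2.83, -3.43 and -3.06 in controls (4.11 ± 0.53; adjusted p = 0.0216). Tgfb2 fell in controls by 1.15 where it rose in mutants (2.52, adjusted p = 0.00788). Among the 6 lower, Crym, a thyroid hormone binding protein, was at -0.72, -0.39 and -0.57 on day 0 and -0.62, -0.30 and -0.93 on day 2 in mutants, while controls went from -2.80 and -2.99 to -0.78, -0.65 and -1.12 (-2.11 ± 0.30; adjusted p = 0.0304). Abhd1 went from 1.90, 2.08 and 1.23 to -1.67, -1.24 and -1.04 in mutants and stayed between -1.33 and -0.93 on all control arrays (-2.93 ± 0.36; adjusted p = 0.0216). Wnt10a, a secreted Wnt, was below background on all mutant arrays and on the day 0 controls, and at -2.11, -2.78 and -1.71 on the day 2 controls (adjusted p = 0.0216). Mettl7b rose in both genotypes, by 3.72 in mutants and 7.16 in controls (-3.44 ± 0.53; adjusted p = 0.0402). Among the 11 fits that each left out 1 array, the call was lost in 7 for Rgma, 8 for Crym, 7 for Abhd1, 5 for Wnt10a and 9 for Mettl7b.

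**Figure D4:**
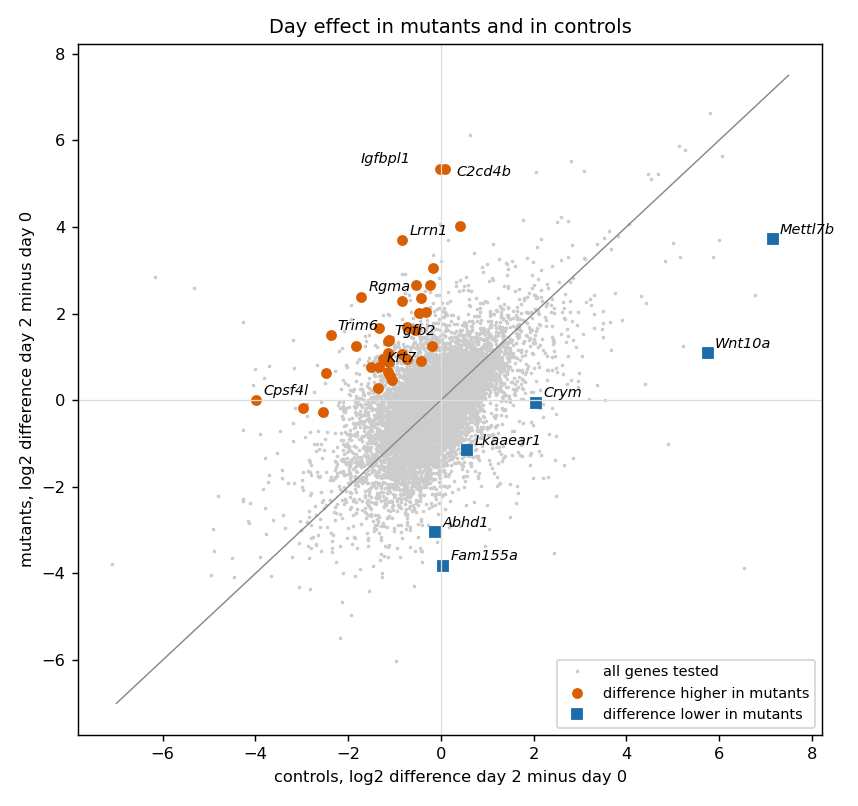
Log2 difference, day 2 minus day 0, in controls (horizontal axis) and in mutants (vertical axis) for 15776 genes, with the line of equal change; the 43 genes whose day effect differed between genotypes are marked. The 37 genes with a higher difference lie above the line, and the 6 with a lower difference lie below it. Of the 37, 18 were called higher in mutants and also called lower in controls.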

How the data were processed

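Liver RNA from 11 pups was hybridised to single-colour (Cy3) Agilent whole-genome mouse arrays. Per the file headers, spot intensity was extracted with Feature Extraction 9.5.3.1, with background subtraction and detrending within the array, and probe positions refer to mm8. The authors also deposited log2 values from RMA, per the submitters' processing notes, which served as an alternative. Here the processed intensity was put on the log2 scale and centred on each array's 75th percentile, after removal of control and outlier spots. A probe was tested if all arrays of 1 or more groups read it well above background (27151 of 41174), and the probe with the highest mean stood for its gene. The rule hides disagreement among probes, which is stated where it arose. Groups were fitted with limma 3.58.1 in R 4.3.3 as 4 coefficients over 11 arrays (7 residual and 2.39 prior degrees of freedom), with Benjamini-Hochberg adjustment over 15776 genes at 0.05. The fit was tested on simulated data. The number of arrays limits precision. The labels do not say whether replicates are separate litters, so p-values measure the spread between these samples. For genes with missing spots, fewer arrays enter the fit.

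The members and gene lists were chosen with earlier results of these data known. Named genes are the 10 largest rises and falls called with and without day 0 replicate 3 whose days do not overlap (clones, predicted and sex-linked genes passed over), in every list as many as 3 members by smallest p, the 6 largest differences between genotypes each way whose days do not overlap in 1 or both genotypes, and a fixed set; further list members were picked after their values were seen. A few genes that meet the rule are not reported here. Alternatives changed the background correction, scaling, probe filter, choice of probe, slide block, sex covariate, array weights and the arrays used.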

Additional observations from a re-analysis of the deposited data

Results flagged for a closer look

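For 14 of the named genes the change from day 0 to day 2 differed between mutants and controls by the interaction contrast of the limma fit. The value given for each is the log2 day effect in mutants minus that in controls. It was 5.36 for Igfbpl1, 5.25 for C2cd4b, 4.51 for Lrrn1, 4.11 for Rgma, 3.98 for Cpsf4l and 3.88 for Trim6. It was 2.52 for Tgfb2 and 2.09 for the duct keratin Krt7. It was -4.68 for Wnt10a, -3.87 for Fam155a, -3.44 for Mettl7b, -2.93 for Abhd1, -2.11 for Crym and -1.73 for Lkaaear1. The values for Igfbpl1, Wnt10a and Fam155a are fitted against signals that were not well above background in some groups and do not measure a size. Under normexp background correction they were 2.25, -2.25 and -1.68, and Igfbpl1 and Fam155a lost their calls. Fam155a lost its call in the RMA values as well (-2.22). C2cd4b, Lrrn1, Trim6 and Lkaaear1 were also not well above background on all 11 arrays, so their sizes depend on the background treatment. Under normexp they were 3.56, 1.96, 1.58 and -0.71, and Trim6 and Lkaaear1 lost their calls. Lkaaear1 also lost its call under quantile normalization (-1.65) and in the RMA values (-0.77). Among the 11 fits that each left out 1 array, the call was lost in 8 for Lrrn1, 9 for Cpsf4l, 9 for Trim6, 9 for Fam155a and 10 for Lkaaear1. Cpsf4l and Crym showed no called change in mutants, with fitted differences of 0.00 and -0.06, and their control values were -3.98 and 2.05. Fam155a fell at least 9.97-fold in mutants, to below background on all day 2 arrays, and differed by 0.05 in controls. With pup sex in the fit, of the 6 genes chosen in each direction Igfbpl1 kept its call and the 11 others lost theirs, C2cd4b at 5.21. Pup sex was unevenly spread over the groups, and its part in these differences was not tested further.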

How the results depend on the processing

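For the mutant change the counts of genes higher and lower were 698 and 1078 when only the 6 mutant arrays were fitted, and 908 and 1071 when pup sex was added to the fit; fewer degrees of freedom entered the first. Leaving out 1 array at a time gave 627 to 1612 higher and 761 to 1908 lower. Normexp background correction gave 2569 lower and 1530 higher. For the difference between genotypes, genes higher numbered 16 with no filter on dim probes, 363 with array weights, 4 when pup sex was added, and 1 to 229 with 1 array left out. Genes lower numbered 12 under median scaling, 2 with no filter, 10 with the mean of a gene's probes, 141 with array weights, 1 when pup sex was added, and 0 to 59 with 1 array left out. With the slide, which is also the replicate number, as a block, the mutant change gave 1339 higher and 1751 lower and the difference 15 and 2. Whether the numbers pair the samples beyond a shared slide cannot be settled from so few arrays. Deviations of same-numbered mutant arrays correlated at 0.00774, 0.0987 and -0.0282, and those of unlike-numbered arrays at -0.122 to 0.118. Alb, saturated on all mutant arrays, was -0.57 in the fit reported, 0.09 under quantile normalization and as low as -0.67 elsewhere, and its call was lost in 13 settings. Over the named genes and all settings, 2373 values of the mutant change kept direction and call, 139 lost the call, 12 gained it, 6 moved and 1 reversed. Causes were not tested. Dim probes give bounds only, which hold for the background treatment of the main fit. Saturated ones cannot show the full size of a change.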

Other observations

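Genes under daily, glucocorticoid and insulin control had 5 of 26 measured members higher from day 0 to day 2 in mutants and 1 lower (median 0.21). The shares over all genes were 9.46% and 11.3%. Without day 0 replicate 3 the counts were 9 and 1. Nr1d1, the clock repressor REV-ERB alpha, picked here after its values were seen, was at -3.87 and -3.88 on day 0 replicates 1 and 2, at -0.05 on replicate 3, and at 0.96, 0.37 and 0.75 on day 2. Its difference was 3.30 ± 0.85 (adjusted p = 0.027 by limma) with all arrays and 4.57 (adjusted p = 8.27e-05) without replicate 3, and in controls it was 5.17. Tef, a clock output factor, rose by 0.89 ± 0.16 (adjusted p = 0.00726), and the kinase Sgk1 by 0.98 ± 0.18 (adjusted p = 0.00758). Foxo3 differed by -1.32 on the probe chosen and by 0.59 on another.

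Among genes of gut and pancreas, Fabp2, a fatty acid carrier of the intestine, went from 1.06, 1.21 and -0.50 to 4.35, 4.88 and 4.90 (4.12 ± 0.43, 17.3-fold; adjusted p = 0.000855). The pancreatic lipase relative Pnliprp1 went from 1.54, 2.33 and 0.83 to -1.92, -0.57 and -0.75 (-2.65 ± 0.42; adjusted p = 0.00469). Slc2a1, the glucose carrier of red cells and of cells short of oxygen, went from 5.77, 5.88 and 7.27 to 3.09, 3.45 and 3.61 (-2.93 ± 0.38, 7.61-fold; adjusted p = 0.00217). Gclc, of glutathione synthesis, rose by 1.08 ± 0.14 (adjusted p = 0.00225) and Nqo1, a quinone reductase, by 1.58 ± 0.30 (adjusted p = 0.00865). Dkk1, a secreted inhibitor of Wnt signalling, fell at least 2.63-fold to below background on all day 2 mutants (adjusted p = 0.000301). Its smallest fitted difference over the settings tried was -0.86, short of that bound.

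The remaining lists gave small counts, beside 9.46% of all genes called higher and 11.3% lower. Stress and cell death genes had 2 of 38 higher and 3 lower, or 6 and 7 without day 0 replicate 3, and 1 lower without day 2 replicate 1 or 2. Wnt and Yap targets had 2 of 33 higher and 3 lower, or 5 and 4 without day 0 replicate 3. The list of gut and pancreas genes had 2 of 18 higher and 3 lower, or 2 and 2 without day 0 replicate 3. The 9 liver markers had 1 higher and 4 lower, 1 and 3 without day 0 replicate 3, and 1 lower without any one of the day 2 mutants. None was lower under quantile normalization or in the RMA values, and 1 under median centring.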
